A study of Mus musculus with 12 samples.

Results

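The response of vascular smooth muscle cells (VSMCs) to cobalt chloride (CoCl2) was compared between cells with intact Hif1a and cells in which Hif1a had been disrupted. The quantity was the CoCl2 effect in the disrupted cells minus the CoCl2 effect in the intact cells. It used all 12 of the 12 arrays of the series and 47179 of the 97836 probes, namely those well above background on every array. A difference above 0 means that a transcript moved further up, or less far down, with CoCl2 in the disrupted cells.

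The 4 groups had 3 arrays each. Cells of Hif1afl/fl mice (here floxed cells) were exposed for 24 h to 150 µM CoCl2 or to phosphate-buffered saline (PBS) of equal volume. Cells of Hif1a△SMC mice, whose Hif1a is disrupted in vascular smooth muscle (here deleted cells), had the same exposures. All cells came from male mice and were grown in smooth muscle cell medium with fetal bovine serum and growth supplement. The labels name no Cre driver, no age and no passage number. Whether replicate arrays stem from different cultures or different animals is not said, so each p-value reflects the spread among these arrays alone, which may be technical. Of the tested probes, 0 were named Hif1a by accession or clone, so the disruption was not checked on these arrays.

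Hypoxia-inducible factor 1 is a transcription factor made of an oxygen-regulated alpha subunit, encoded by Hif1a, and a stable beta subunit. With oxygen present, prolyl hydroxylases mark the alpha subunit for degradation; cobalt ions interfere with these enzymes, and the subunit then accumulates and binds hypoxia response elements that share a short core. Cobalt also acts on cells through metal and oxidative stress, and other alpha subunits are stabilised by it too. The comparison therefore addresses which transcripts respond to CoCl2 differently when Hif1a is disrupted.

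The array holds noncoding records from several catalogues beside catalogue probes with no gene name in the tables used here, so few probes could be named. Per record type, 23833 tested probes had Agilent catalogue names, 12012 came from the NONCODE catalogue of noncoding RNAs, 7551 from RIKEN clones, 3113 from predicted and 287 from curated RefSeq noncoding records. By accession, 1097 tested probes matched a gene symbol, and 98 of these probes, for 94 genes, had an established symbol. Where such a gene encodes a protein, the probe is named for a noncoding record. Whether it also detects the messenger RNA was not tested.

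The promoters of the 2 established genes with the lowest differences, Kcnd3os and Pitpnm2os1, and that of Esr2 are shown because the hypoxia response core could be looked for in them. Kcnd3os is transcribed at Kcnd3, a voltage-gated potassium channel gene. Pitpnm2os1 lies at Pitpnm2, a phosphatidylinositol transfer protein gene. Esr2 encodes oestrogen receptor beta and was picked after its sequence had been searched, since its window was the only one with the core among the 9 established genes that passed the test. The sequences are from RefSeq, build GRCm38.p6, and are windows of 300 bases that span the start of the gene. They lie at chr3:105452906-105453205 (minus strand), chr5:124229475-124229774 (plus strand) and chr12:76177210-76177509 (minus strand). Capitals mark the palindrome that holds the core on both strands.
Kcnd3os: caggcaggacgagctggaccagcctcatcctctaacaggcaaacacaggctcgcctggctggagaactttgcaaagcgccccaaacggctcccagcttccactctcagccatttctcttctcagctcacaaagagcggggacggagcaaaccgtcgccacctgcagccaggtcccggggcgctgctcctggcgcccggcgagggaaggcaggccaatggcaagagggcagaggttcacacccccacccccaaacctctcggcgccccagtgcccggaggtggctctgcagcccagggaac
Pitpnm2os1: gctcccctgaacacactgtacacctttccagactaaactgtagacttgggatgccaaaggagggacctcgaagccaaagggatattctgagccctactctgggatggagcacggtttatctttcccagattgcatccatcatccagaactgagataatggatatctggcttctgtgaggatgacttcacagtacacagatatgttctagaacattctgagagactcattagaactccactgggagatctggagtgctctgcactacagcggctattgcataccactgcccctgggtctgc
Esr2: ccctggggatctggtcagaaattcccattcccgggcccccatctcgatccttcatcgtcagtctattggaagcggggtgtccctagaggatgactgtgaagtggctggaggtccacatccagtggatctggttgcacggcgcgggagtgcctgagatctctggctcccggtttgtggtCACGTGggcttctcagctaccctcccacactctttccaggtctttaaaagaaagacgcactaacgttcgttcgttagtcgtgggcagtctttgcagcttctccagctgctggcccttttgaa
The core searched was ACGTG, on both strands, and no other form of the core was searched, so all counts of it are for this form alone. The Kcnd3os and Pitpnm2os1 windows held 0 matches on either strand. The Esr2 window held 1 on each strand, which overlap in CACGTG. Of all 32851 RefSeq promoter windows, 6447 (19.6%) held the core. Among tested genes with a RefSeq symbol it was in 27 of 176 windows (15.3%) of genes with a lower response in deleted cells, in 0 of 8 windows of genes with a higher response, and in 144 of 799 windows (18%) of genes not past the threshold. A match is a description of these letters only.

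The arrays of 1 group stood apart before any comparison. Probes well above background made up 69.9% to 82.7% on 8 of the 9 arrays outside deleted cells with CoCl2 and 67.7% on the other, a floxed CoCl2 array. They made up 51.9% to 58.5% on the 3 arrays of deleted cells with CoCl2. Scaling used the 75th percentile of log2 signal on each array, which lay between 9.02 and 9.52 on 9 arrays and in the deleted CoCl2 group was 8.17 ± 0.10 (SD, n = 3). In all, 7350 probes were well above background on those 9 arrays and on none of the 3 arrays of deleted cells with CoCl2, and they were left out of the test by the filter. In these bulk samples, fewer cells of a type and less RNA per cell cannot be told apart. The 3 deleted CoCl2 arrays also shared slide 3 with only 1 deleted PBS array, and 1 of them was scanned 4 days after the others.

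The CoCl2 effect differed between the genotypes for 5153 of the 47179 probes (10.9%; limma, adjusted p below 0.05, n = 3 arrays per group). Of these, 3549 (7.52% of those tested) had a lower and 1604 (3.4%) a higher response in deleted cells. In floxed cells CoCl2 alone changed 4104 probes (8.7%), with 2047 (4.34%) rising and 2057 (4.36%) falling. In deleted cells it changed 23045 (48.8%), with 13939 (29.5%) rising and 9106 (19.3%) falling. These effects come from separate arrays, and each shares its arrays with the difference. Leaving out 1 array at a time gave 937 to 8601 probes: the count left its 1.5-fold range without any of the 3 floxed PBS arrays (2618, 1388 and 2513), any of the 3 floxed CoCl2 arrays (8601, 1217 and 1455), deleted PBS arrays 1 and 2 (937 and 1052) and deleted CoCl2 arrays 1 and 3 (3025 and 7869).

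The lower responses were falls in deleted cells on a nearly level background in floxed cells. Over the 3549 probes the median effect was 0.05 on the log2 scale in floxed cells (10th to 90th percentile -0.18 to 0.28) and -1.26 in deleted cells (-2.0 to -0.77). The difference was at least 2-fold for 2736 of them (77.1%), with a median of -1.28 and a lowest value of -4.59. The higher responses were smaller. Over the 1604 probes the median effect was -0.04 in floxed cells (-0.52 to 0.30) and 0.78 in deleted cells (0.35 to 1.24), and 313 (19.5%) differed at least 2-fold. Their median difference was 0.83 and the highest 2.10, against a median of 0.23 over all tested probes.

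**Figure D1:**
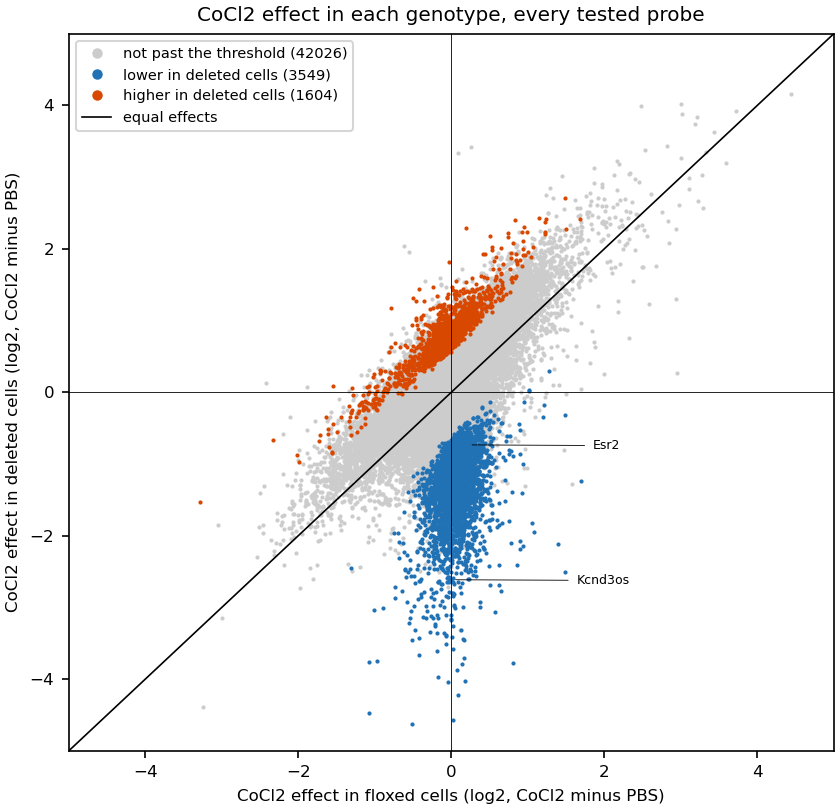
Each point is 1 tested probe, with its CoCl2 effect in floxed cells (x axis, log2, CoCl2 minus PBS) and in deleted cells (y axis, same scale), coloured by whether the difference passed the threshold (limma, adjusted p below 0.05); the diagonal marks equal effects. The 3549 lower probes form a column below 0 on the y axis and near 0 on the x axis, while the 1604 higher probes lie along the upper edge of the cloud.

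Slide and scaling bear on every count. With the slide as a fixed block, 0 probes passed limma's adjusted threshold, although 4728 had an unadjusted p below 0.05, against 14652 without the block. The arrays on which slide and group can be separated are few, and the block's estimate rests on slides 1 and 3 alone. The share of called probes with a higher response was 31.1% in the main scaling, 20.1% after quantile normalization, 8.85% when the 75th percentile was taken over the tested probes, 86.8% of 18762 calls after median scaling, and 17.3% after normexp correction with quantile normalization. Scaled to probes of the E1A spike-in controls of this array type, it was 0 of 10840 calls with 4 of the probes, 1.15% of 5065 calls with 6 and 15.2% of 1634 with all 10. These scalings moved the median difference over all probes from 0.23 to 0.63 (median scaling) and to -0.70 (4 E1A probes). With 4 E1A probes all 3549 lower calls remained lower and past the threshold, and 1135 of the 1604 higher calls had a difference below 0. These 4 are the control probes with differences of 0.87 to 0.98, so scaling to them lowered the difference of every probe by the same amount. Lower calls therefore had to stay lower, and these counts are no check of either direction.

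The E1A controls did not move together. The difference ran from 0.87 to 0.98 for 4 of the 10 control probes, from -2.11 to -1.11 for 4 others, and was 0.34 and -0.07 for the remaining 2. The mouse Pgk1 and Gapdh control probes report glycolytic enzymes, and Pgk1 is a textbook target of HIF. The CoCl2 effect on Pgk1 was 1.71 (3′ probe) and 1.81 (5′ probe) on the log2 scale in floxed cells and 1.70 and 2.10 in deleted cells, so its level was higher with CoCl2 in both genotypes. For Gapdh the effects were 0.84 and 0.43 in floxed cells and 0.99 and 0.86 in deleted cells. The control probes gave differences of -0.01 (95% interval -0.46 to 0.45) for Pgk1 at the 3′ end and 0.29 (-0.24 to 0.83) at the 5′ end. For Gapdh they were 0.15 (-0.23 to 0.53) at the 3′ end and 0.42 (0.02 to 0.82) at the 5′ end. The 3′ minus 5′ signal can follow RNA integrity. With CoCl2 it changed by -0.10 in floxed and -0.40 in deleted cells for Pgk1, and by 0.40 and 0.13 for Gapdh. The 2 genes thus moved in opposite directions and gave no common reading of RNA integrity. The differences between genotypes were -0.30 for Pgk1 and -0.27 for Gapdh. The part of these shifts in the results below was not tested.

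**Figure D2:**
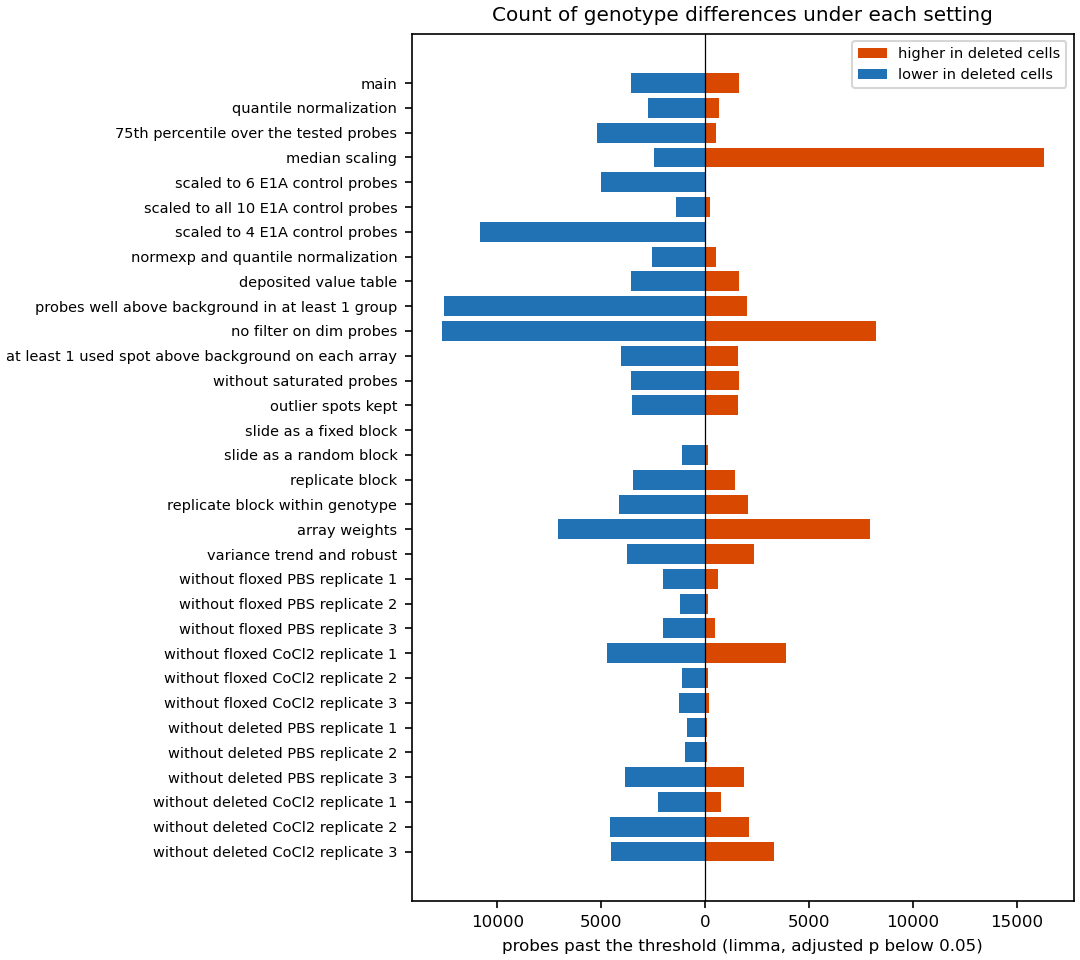
Bars give the number of probes past the threshold (x axis, limma, adjusted p below 0.05) with a higher (right) or lower (left) CoCl2 response in deleted cells, for the main analysis and each alternative (rows). The main analysis has 1604 higher and 3549 lower probes, the fixed slide block has 0 of either, and median scaling has more higher than lower probes.

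Record types and signal levels did not share the calls evenly. Among predicted RefSeq records 31 of 3113 probes had a higher and 484 (15.5%) a lower response, and their median difference was -0.10. Catalogue probes had 1295 higher (5.43%) and 1444 lower (6.06%) calls. NONCODE probes had 167 (1.39%) and 1112 (9.26%), RIKEN clones 103 (1.36%) and 451 (5.97%), curated RefSeq records 1 (0.348%) and 25 (8.71%), and Ensembl noncoding records 7 (2.61%) and 29 (10.8%). Transcribed ultraconserved elements, stretches of genome that hardly differ between mammals, had 0 higher and 4 lower calls (3.6%) among 111 probes. Over all tested probes 3.4% were higher and 7.52% lower. No test compared the record types.

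Bright probes held most of the higher calls. The tested probes were split by mean signal into 4 equal parts, and in the brightest 1025 responses were higher and 700 lower in deleted cells. In the next to dimmest, 163 were higher and 1302 lower. The filter kept 25.6% of predicted RefSeq records against 61.1% of catalogue probes. With probes kept that were well above background in at least 1 group, 14570 of 70909 passed the test, 12559 of them lower; these include probes not above background in deleted cells with CoCl2, whose fold changes are only bounds.

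**Figure D3:**
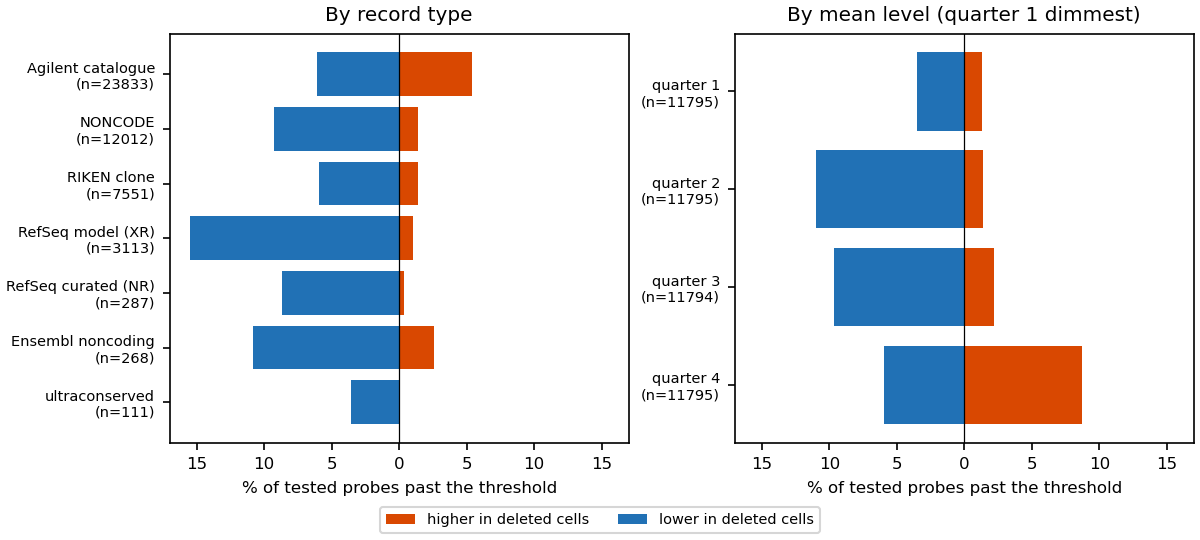
Bars give the percentage of tested probes past the threshold (x axis) with a higher (right) or lower (left) CoCl2 response in deleted cells, by record type (left panel) and by 4 equal parts of mean signal (right panel), with the number tested beside each. Predicted RefSeq records reach 15.5% lower, and of the 4 parts only the brightest has more higher than lower calls.

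Of the 94 genes with an established symbol, 9 passed the test and all 9 had a lower response in deleted cells. They made up 9.18% of the 98 established probes, against 7.52% of all tested probes in that direction. A higher response was called for 0 of the 98, against 3.4% of all tested probes. The difference was above 0 for 63 of the 98 established probes, with a median of 0.28. None of the 9 genes had called effects of opposite direction in the genotypes.

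Kcnd3os, the antisense RNA at the potassium channel gene Kcnd3, had the lowest difference. Its level, in log2 units relative to the 75th percentile of the array, was 0.73, 0.73 and 0.92 on the floxed PBS arrays and 0.70, 0.85 and 0.84 on the floxed CoCl2 arrays. In deleted cells it was 0.35, 0.48 and -0.41 with PBS and -2.89, -1.64 and -2.89 with CoCl2. Every deleted CoCl2 array lay below all 9 others, and the floxed groups overlapped. The difference was -2.62 (SE 0.44, 95% interval -3.56 to -1.67, adjusted p = 0.00864 in limma). Within slides it was -1.96, from a fall of 2.06 on slide 3 and a value of -0.10 on slide 1. Such within-slide values equal the estimates of the fit with the slide as a fixed block. That fit kept 0 of the 34 named calls past the threshold.

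Pitpnm2os1 and Mphosph9 are neighbours on chromosome 5, with 0 annotated genes lying wholly between them, and had like profiles. Mphosph9 encodes a centriole protein that restrains the growth of primary cilia. Pitpnm2os1 stood at 0.41, 0.38 and 0.29 on the floxed PBS arrays, 0.19, 1.52 and 1.35 with CoCl2 there, 0.38, 0.74 and -0.49 in deleted PBS cells, and -2.58, -1.30 and -0.95 in deleted CoCl2 cells. Mphosph9 stood at 0.65, 0.77 and 0.70, at 0.12, 1.80 and 1.39, at 0.58, 0.46 and -0.33, and at -2.09, -1.69 and -1.54 in the same order of groups. In both genes the deleted CoCl2 arrays were the lowest of all 12, and the floxed CoCl2 array on slide 1 lay below the other 2 floxed CoCl2 arrays, which lay on slide 2. The differences were -2.48 (SE 0.62, adjusted p = 0.0283 in limma) and -2.40 (SE 0.51, adjusted p = 0.0167). Within slides they were smaller, at -0.95 and -0.85.

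Scnn1b, the gene of the beta subunit of the epithelial sodium channel, was measured through a noncoding record. Its levels were 1.41, 1.29 and 1.60 in floxed PBS cells, 0.79, 1.48 and 1.20 in floxed CoCl2 cells, 0.32, 0.42 and -0.33 in deleted PBS cells and -2.39, -1.37 and -1.87 in deleted CoCl2 cells. The groups of deleted cells did not overlap each other, and both deleted groups lay below both floxed groups. The difference was -1.74 (SE 0.38, adjusted p = 0.0189 in limma), with an effect of -0.28 in floxed and -2.01 in deleted cells, and -0.90 within slides.

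Hnf4aos is transcribed antisense to Hnf4a, a nuclear receptor gene of liver, gut and kidney. It was measured at 0.34, 0.42 and 0.52, at -0.04, 0.71 and 0.76, at 0.20, 0.54 and 0.02, and at -1.20, -1.80 and -1.18 in floxed PBS, floxed CoCl2, deleted PBS and deleted CoCl2 cells. The deleted CoCl2 arrays lay apart from the other 9, which overlapped. The difference was -1.70 (SE 0.33, adjusted p = 0.0134 in limma), and -0.95 within slides. Scaled to all 10 E1A probes it was no longer past the threshold (adjusted p = 0.0687). A RIKEN clone at the same locus, a separate probe, gave -1.83 (SE 0.44, adjusted p = 0.0249 in limma), and -0.76 within slides.

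Nctc1 lies between Mrpl23 and the imprinted growth factor gene Igf2. It fell with CoCl2 in deleted cells from -0.27, -0.26 and -0.86 to -2.04, -1.99 and -2.13, while the floxed arrays were at 0.52, 0.04 and 0.21 with PBS and at -0.12, 0.64 and 0.37 with CoCl2. Mtag2 overlaps Ppfia3 and Lin7b, genes of synaptic scaffold proteins. It went from 0.08, 0.12 and -0.08 to -2.14, -1.48 and -1.43 in deleted cells, and was at 0.62, 0.66 and 0.85 with PBS and at 0.51, 0.50 and 0.47 with CoCl2 in floxed cells. For both genes the floxed groups lay above the deleted groups in mean level, and the deleted CoCl2 arrays lay below all others. The differences were -1.63 (SE 0.31, adjusted p = 0.0125 in limma) for Nctc1 and -1.51 (SE 0.25, adjusted p = 0.00868) for Mtag2. Within slides they were -0.81 and -1.41.

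Esr2 and Aopep had the smallest of the 9 differences. Esr2 stood at 3.31, 3.31 and 3.25 with PBS and 3.49, 3.49 and 3.54 with CoCl2 in floxed cells, and at 3.67, 3.81 and 3.51 with PBS and 2.76, 2.76 and 3.27 with CoCl2 in deleted cells. The third deleted CoCl2 array overlapped the floxed PBS arrays. The difference was -0.95 (SE 0.22, adjusted p = 0.0218 in limma), which is 1.93-fold lower, and -0.78 within slides. Aopep, an aminopeptidase gene, gave -0.95 (SE 0.27, adjusted p = 0.0433), with levels of 0.74 to 1.33 in deleted CoCl2 cells against 1.56 to 2.19 on the other 9 arrays, and -0.60 within slides. Both calls were lost with median scaling, at -0.55 for each gene (limma adjusted p = 0.0689 for Esr2 and 0.0998 for Aopep), and with all 10 E1A probes (0.154 and 0.182). That of Aopep was also lost after normexp and quantile normalization (adjusted p = 0.0638).

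Kcnd3os, Hnf4aos, Nctc1 and Mtag2 stayed past the threshold without any single array. The call of Mphosph9 was lost without deleted PBS array 1 or 2. Those of Scnn1b and Esr2 were lost without these, floxed PBS array 2 or floxed CoCl2 array 2 or 3, and that of Esr2 also without floxed PBS array 3. Those of Pitpnm2os1 and Aopep were lost without any floxed PBS array, floxed CoCl2 array 2 or 3, deleted PBS array 1 or 2, or deleted CoCl2 array 1, and that of Aopep also without deleted PBS array 3 or deleted CoCl2 array 2. All 9 calls were lost with the slide as a fixed block. With the slide as a random block, those of Pitpnm2os1, Mphosph9, Scnn1b, Esr2 and Aopep were lost. All 9 differences stayed below 0 in all of these fits.

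**Figure D4:**
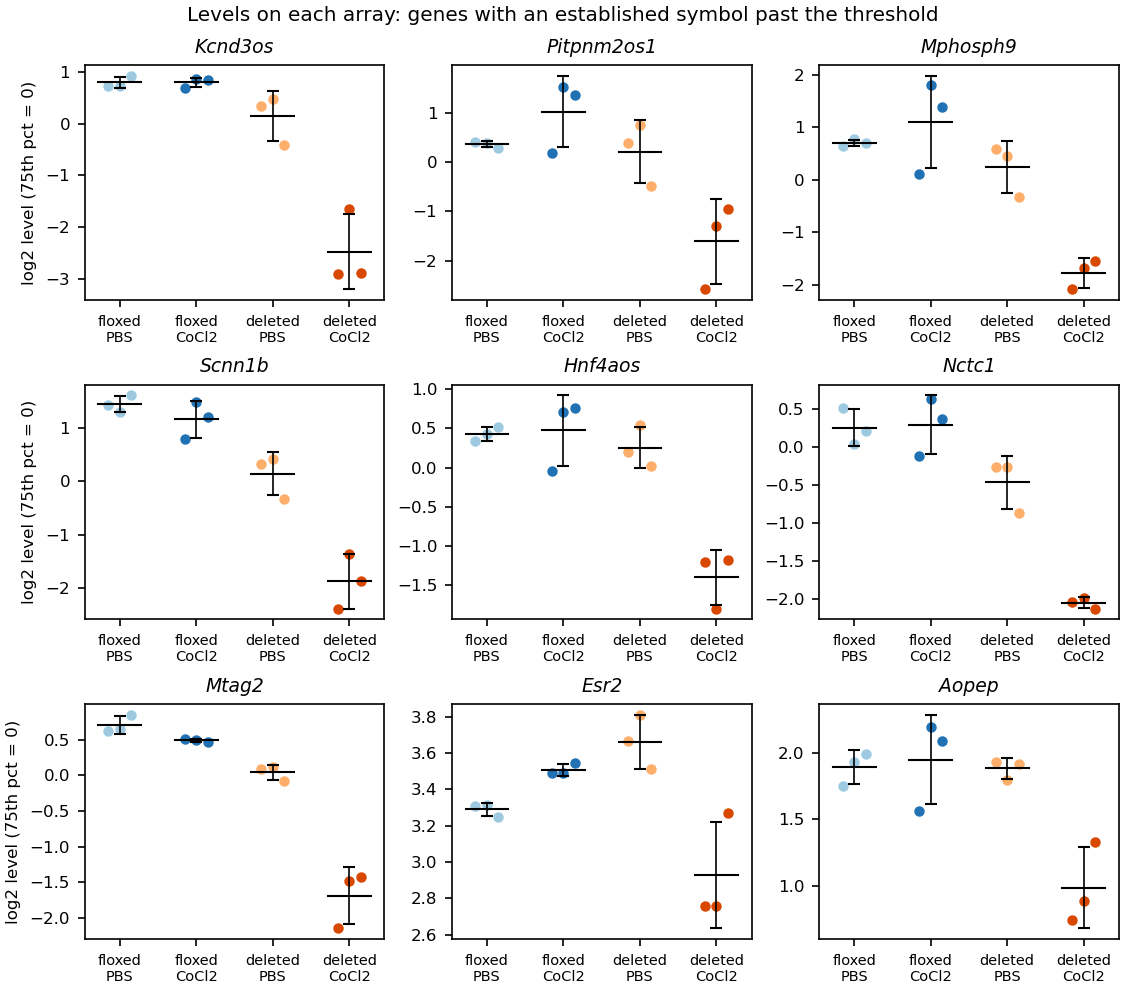
Each panel plots the level of 1 established gene on the 12 arrays (points; y axis, log2 signal minus the 75th percentile of the array) for the 4 groups, with the mean (line) and SD (bars) of 3 arrays. In every panel the mean of deleted cells with CoCl2 is the lowest, and in every panel but that of Esr2 its 3 arrays lie below the other 9. The genes were picked by the test of the difference, and this separation was not counted over all tested probes.

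Of 999 tested probes with a predicted or clone-style symbol matched by accession, 173 (17.3%) had a lower and 5 (0.501%) a higher response in deleted cells, beside 7.52% and 3.4% of all tested probes. Gm41538, a predicted long noncoding RNA between 2 vomeronasal receptor genes, Vmn2r97 and Vmn2r98, was the lowest. It stood at 2.43, 2.50 and 3.27 with PBS and at 3.03, 2.45 and 3.24 with CoCl2 in floxed cells. In deleted cells it went from 3.30, 3.06 and 3.27 to -0.66, -0.14 and 0.04, an 11-fold fall that left no overlap with any other group. The difference was -3.63 (SE 0.37, 95% interval -4.43 to -2.82, adjusted p = 0.00325 in limma), and within slides it was -3.81.

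The next lowest was Gm6642, a transcribed pseudogene overlapping Prkg1, the gene of a cGMP-dependent protein kinase that mediates smooth muscle relaxation. It went from 1.06, 0.93 and 0.83 to -2.64, -1.71 and -1.35 with CoCl2 in deleted cells, while the 6 floxed arrays lay between 0.62 and 1.12. The difference was -2.76 (SE 0.38, adjusted p = 0.00557 in limma). Gm40597, near Ulbp1, which encodes a ligand of an activating receptor of natural killer cells, gave -2.67 (adjusted p = 0.0121 in limma), with an effect of -0.55 in floxed and -3.22 in deleted cells. Gm40339, between Auts2 and Castor2, gave -2.58 (adjusted p = 0.00868 in limma). B230208H11Rik, between the utrophin gene Utrn and the syntaxin gene Stx11, gave -2.47 (adjusted p = 0.014 in limma). In all 5 genes the 3 deleted CoCl2 arrays lay below the other 9, and within slides the differences ran from -3.81 to -1.33. These genes were ranked by the difference, and such a separation was not counted over all tested probes. The 5 stayed past the threshold without any single array, and all of them lost it with the slide as a fixed block.

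Among the predicted genes with a higher response, Gm32681 overlaps Layn, a hyaluronan receptor gene. Its levels were -1.80, -1.80 and -1.96 with PBS and -1.41, -0.84 and -0.96 with CoCl2 in floxed cells, and -2.18, -2.05 and -2.17 with PBS and -0.09, -0.04 and -0.66 with CoCl2 in deleted cells. It rose with CoCl2 in both genotypes, 1.72-fold in floxed cells (adjusted p = 0.0238 in limma) and 3.65-fold in deleted cells, and the difference was 1.09 (SE 0.27, adjusted p = 0.0276). Gm15704, which overlaps Rassf8 and precedes Bhlhe41, a hypoxia-responsive transcriptional repressor of the circadian clock, went from -0.84, -0.74 and -0.88 to -0.59, -0.05 and -0.06 in floxed cells. In deleted cells it went from -1.11, -1.10 and -1.47 to 0.70, 0.22 and 0.27, and the difference was 1.04 (SE 0.26, adjusted p = 0.0301 in limma). In both genes the CoCl2 arrays of deleted cells were above all others, and within slides the differences were larger, at 1.47 and 1.64.

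Gm39009, between the sulfotransferase gene Sult2b1 and the kinase gene Lmtk3, gave 1.1 (SE 0.32, adjusted p = 0.0451 in limma), with an effect of -0.05 in floxed and 1.05 in deleted cells. Gm40185, which overlaps the choline transporter-like gene Slc44a5, gave 0.97 (SE 0.24, adjusted p = 0.0267). Within slides these 2 differences were smaller, at 0.49 and 0.58. The fifth predicted gene, Gm26535, had a dimmer probe at 1.12 (adjusted p = 0.0255 in limma) and a brighter one at 0.90 (adjusted p = 0.0718), so its probes fell on both sides of the threshold. Of 28 symbols with several tested probes, 6 had at least 1 past the threshold and 2, Gm30325 and Gm33597, had all. In 1 of these 6, R74862, the probes pointed in opposite directions, at -1.78 and 0.33.

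RIKEN clones are complementary DNAs that can come from introns or antisense strands, so a clone at a locus need not report the gene's messenger RNA. Clones were linked to loci by name, and their probes were not placed on exons or strands. Of 403 tested clones at an established symbol, 6 (1.49%) had a higher and 24 (5.96%) a lower response in deleted cells. Over all tested probes these shares were 3.4% and 7.52%, both above those of the clones. Their median difference was 0.22. The 6 higher ones and the 10 lowest were picked for naming after their values were seen.

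The clone at Hells, a chromatin-remodelling helicase gene needed for DNA methylation, had a smaller fall in deleted cells. In floxed cells it went with CoCl2 from 0.37, 0.23 and 0.16 to -1.42, -1.77 and -2.02, and in deleted cells from 0.31, 0.28 and 0.56 to -0.53, -0.94 and -0.30. It fell in both genotypes, by 1.99 and by 0.97 on the log2 scale, and the CoCl2 groups did not overlap. The difference was 1.02 (SE 0.27, adjusted p = 0.0359 in limma), and 0.52 within slides.

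The clones at Gprasp1, a gene of G protein-coupled receptor sorting, and at Fyttd1, a messenger RNA export adaptor gene, rose in both genotypes and further in deleted cells. The Gprasp1 clone rose by 0.84 in floxed and by 1.93 in deleted cells, with levels of 1.70 to 2.12 and of 3.90 to 4.25 on the CoCl2 arrays, and the difference was 1.09 (adjusted p = 0.0271 in limma), or 0.53 within slides. For the Fyttd1 clone the effects were 0.59 and 1.59 and the difference 1.01 (adjusted p = 0.015 in limma). The clones at Klf9, a glucocorticoid-responsive transcription factor gene, at Vps4b, an ATPase of membrane scission, and at Rnf220, a ubiquitin ligase, gave 0.86, 0.84 and 0.74 (adjusted p = 0.0372, 0.0306 and 0.0327 in limma). These last 3 rose in deleted cells by 0.82, 0.80 and 0.84, against floxed effects of -0.05, -0.04 and 0.10 that did not pass the test. With the scaling to 4 E1A probes their differences turned to -0.07, -0.09 and -0.19. All 10 named higher results, the 4 predicted genes and the 6 clones, lost their call when scaled to 6 or to 4 E1A probes. The scaling to 4 lowered every difference by the same amount, so the loss with 4 does not test these genes. With 4 the other 7 fell to between 0.039 (Gm40185) and 0.17 (Gm39009).

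Among the lower clones, the one at Kalrn had the lowest difference. The Kalrn clone went in deleted cells from 0.79, 0.74 and -0.36 to -1.93, -1.68 and -1.24, and the floxed arrays lay between 0.63 and 1.39. The Kalrn difference was -2.14 (SE 0.43, adjusted p = 0.0143 in limma) and the Dock4 difference -1.25 (adjusted p = 0.0287), and within slides they were -0.89 and -0.46. The clone at Bnip5 had the smallest adjusted p of the named clones, with a difference of -1.94 (SE 0.25, adjusted p = 0.00473 in limma) and levels of -2.49, -2.37 and -2.37 in deleted CoCl2 cells against -0.77 or more on the other 9 arrays. The clones at Ndufa6, a subunit gene of respiratory complex I, and at Dnaja2, a co-chaperone gene of heat shock protein 70, gave -1.24 and -1.27 (adjusted p = 0.0143 and 0.0408 in limma). The clones at Ly6g6d, Ankrd65, Lncbate10 and Mospd3 gave differences from -1.80 to -1.44. In all 10 lowest clones the deleted CoCl2 arrays lay below the other 9. The clones were ranked by this difference, and the share of all tested probes with such a separation was not counted.

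Of the lower clones, those at Kalrn, Bnip5, Ankrd65, Mospd3 and Ndufa6 stayed past the threshold without any single array, and the other 5 lost it without deleted PBS array 1 or 2. The 4 predicted genes and 6 clones with a higher response all lost it without deleted PBS array 1 or 2, and all but the Fyttd1 clone also without at least 1 of the floxed arrays. With the slide as a fixed block, all of these clones and predicted genes lost it.

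**Figure D5:**
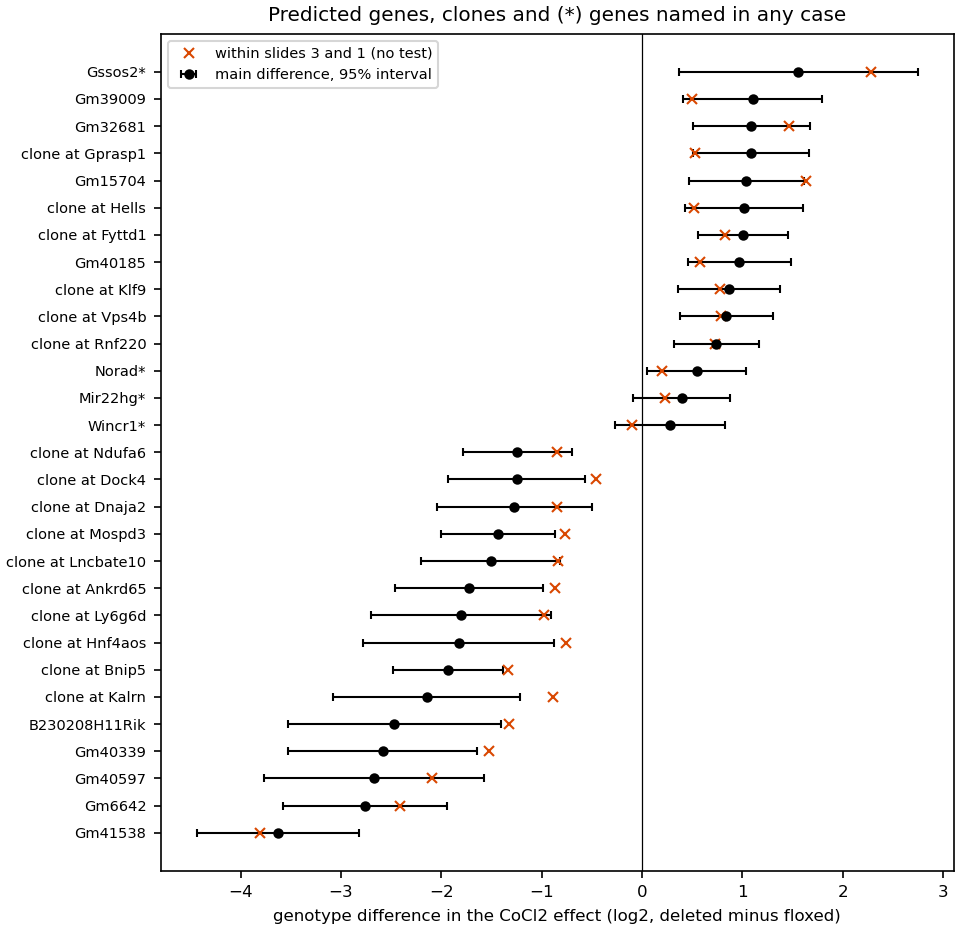
Points give the genotype difference in the CoCl2 effect (x axis, log2, deleted minus floxed) with its 95% interval. They cover predicted genes, clones and genes named whatever their result (marked with an asterisk). Crosses give the same difference within slides 3 and 1, drawn without its test. It is the estimate of the fit with the slide as a fixed block, which kept 0 of the 34 named calls past the threshold. The crosses lie on the same side of 0 as the points except for Wincr1, at -0.10 against 0.28.

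The 4 transcripts Gssos2, Norad, Mir22hg and Wincr1 were named whatever their result, and 0 of them passed the test of the difference in limma. Gssos2, an antisense RNA at the glutathione synthetase gene, stood at -2.77, -2.63 and -2.76 with PBS and at -2.0, -1.58 and -0.70 with CoCl2 in floxed cells, and went from -3.22, -2.73 and -3.19 to 0.49, 0.10 and -1.18 in deleted cells. The third deleted CoCl2 array lay within the range of the floxed CoCl2 arrays. Its difference was 1.56 (95% interval 0.37 to 2.75, adjusted p = 0.0817 in limma), with effects of 1.30 and 2.85. Norad, a noncoding RNA that binds Pumilio proteins, gave 0.54 (0.05 to 1.04, adjusted p = 0.127 in limma). Mir22hg, the host transcript of a microRNA, gave 0.39 (-0.09 to 0.88, adjusted p = 0.241), and Wincr1, a Wnt-induced noncoding RNA, gave 0.28 (-0.26 to 0.82, adjusted p = 0.452). The signs of Norad, Mir22hg and Wincr1 turned with the scaling to 4 E1A probes, which lowered every difference by the same amount. With median scaling 3 of the 4 passed the threshold in limma, namely Norad at 0.94 (adjusted p = 0.0146), Mir22hg at 0.79 (adjusted p = 0.0324) and Gssos2 at 1.96 (adjusted p = 0.0195). Gssos2 also passed without deleted CoCl2 array 3, at 2.05 (adjusted p = 0.0137).

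Of 342 genes on 16 lists for smooth muscle, hypoxia, RNA processing and other cell types, 34 were measured by 39 probes, 27 matched by accession and 12 by clone. By limma 0 of the 39 passed the threshold, against 10.9% of all tested probes, and 3 had an unadjusted p below 0.05. Their median difference was 0.43 (from -0.56 to 0.81), with 30 above 0, beside a median of 0.23 over all tested probes. The smallest adjusted p was 0.0834 in limma, for Rpph1, the RNA component of ribonuclease P, at 0.62.

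Host transcripts of microRNAs and small nucleolar RNAs had 11 of 14 probes above 0, with a median of 0.42. The median over all tested probes was itself above 0, at 0.23, and their share above 0 was not counted. Below 0 were Mir9-3hg (-0.19), a probe of Rian (-0.04) and a clone at Mir100hg (-0.006). Snhg9 gave 0.55 (-0.06 to 1.17) and Snhg16, both hosts of small nucleolar RNAs, gave 0.46 (-0.15 to 1.08). Long noncoding RNAs of known function had 12 of 15 probes above 0, with a median of 0.39. Mir22hg was counted on both lists. Morrbid, a regulator of myeloid cell survival, gave 0.43, and the X-linked Firre and Ftx gave 0.54 and 0.52. Below 0 were Carmn (-0.36), Trp53cor1 (-0.09) and Meg3 (-0.05). RNA-binding protein loci were measured by noncoding records of Hnrnpa1 and Rbmx, at 0.57 and 0.66. None of these values passed the test.

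Smooth muscle markers were covered by Carmn, the smooth muscle noncoding RNA that acts with myocardin, at -0.36 (95% interval -0.97 to 0.24), and by clones at Cald1 (0.05) and Synpo2 (-0.49 and 0.81). The clone at Ep300, a coactivator of HIF, gave -0.39, and the clone at Sod1, the cytosolic superoxide dismutase gene, gave 0.79 (adjusted p = 0.162 in limma). Clones at Atg12, of autophagy, and Kif2c, of chromosome segregation, gave 0.73 and -0.56. The lists of HIF target genes and of endothelial, leukocyte, fibroblast, epithelial and interferon genes had 0 members tested, so the labelled cell type and other cell types could not be checked beyond Carmn and these clones.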

How the data were processed

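Each deposited scanner file holds the linear intensity of every spot of a single-colour array, extracted with Agilent Feature Extraction 11.5.1.1, per the file headers; version 9.1 stands in the submitters' processing notes. The labels name biotin in one field and cyanine-3 in the protocol. The authors' deposited value table, in log2 units, differed from the scanner values only by a constant per array, to within 0.01 for all probes on 9 arrays and all but 1 probe on 3. How it was made was not given in the sources used here. Its 75th percentile lay between -0.0017 and -0.00064 on every array, so to within these values it had the scaling of the main analysis.

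Control spots and spots with outlier marks were left out, the processed signals of a probe were averaged as log2, and each array's 75th percentile was subtracted. Probes whose used spots were all well above background on all 12 arrays were tested in R 4.3.3 with limma 3.58.1 (lmFit, then eBayes, 8 residual and 4.47 prior degrees of freedom, Benjamini-Hochberg adjusted p below 0.05 over 47179 probes). The script was tested on simulated data. The number of arrays, 3 per group, sets the precision.

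Groups came from the titles and symbols from RefSeq by accession (4658 of 13019 array probes matched). Clones were linked to loci by name. Named were the 10 highest and 10 lowest established symbols past the threshold, 5 and 5 predicted symbols and genes with opposite called effects. Named in any case were Hif1a, Mir22hg, Wincr1, Gssos2, Norad, the Pgk1 and Gapdh control probes and list members. Ranked symbols and the single genes named in any case went through their brightest probe. Control probes, clones and list members went through every probe. The members, lists and rule were chosen with earlier results of these data known. All floxed PBS arrays and 1 floxed CoCl2 array lay on slide 1. On slide 2 lay 2 floxed CoCl2 and 2 deleted PBS arrays, and on slide 3 lay 1 deleted PBS array with all deleted CoCl2 arrays. On slides 1 and 3 PBS arrays came first, so position and treatment cannot be told apart there. Other scalings, filters and blocks, and fits without 1 array, were tried.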

Additional observations from a re-analysis of the deposited data

Results flagged for a closer look

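The CoCl2 effect differed between floxed and deleted cells for 5153 probes by the test of the difference itself (limma, adjusted p below 0.05). Outside the tested probes, 7350 probes were well above background on all 9 other arrays and on no deleted CoCl2 array, while the same count was 28 for floxed PBS, 0 for floxed CoCl2 and 0 for deleted PBS. The part of slide, scan, RNA amount or RNA quality in either count was not tested.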

How the results depend on the processing

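The count of 5153 probes moved to 3421 with quantile normalization, 18762 with median scaling, 1634 with all 10 and 10840 with 4 E1A probes, and 3079 with normexp and quantile normalization, for which the median spot signal was used. It was 14570 with a filter on at least 1 group and 20867 with no filter. It was 0 with the slide as a fixed block, 1264 with the slide as a random block and 14997 with array weights, whose fit stopped before convergence. Leaving out 1 array at a time gave 937 to 8601. The cause of these moves was not tested.

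Wincr1 turned to -0.032 with quantile normalization, -0.65 with 4 E1A probes, -0.13 with normexp and quantile normalization, and -0.10 with the slide as a fixed block and within slides. With 4 E1A probes Norad turned to -0.39, Mir22hg to -0.54, and the clones at Klf9, Vps4b and Rnf220 to -0.069, -0.093 and -0.19. That scaling lowered the difference of every probe by the same amount.

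Of the 34 named genes and clones past the threshold, 0 stayed past it with the slide as a fixed block and 16 with the slide as a random block. With 4 E1A probes 24 stayed, and without 1 array 14 to 34. Since the scaling to 4 E1A probes lowered every difference alike, its count does not test the lower calls. Arrays of equal number had correlated deviations between the floxed groups (0.458 to 0.49) and not in every pair of the deleted groups (-0.124 to 0.331), and across all groups 9 of 18 pairs were over 0.1, so the numbers were not taken to pair the arrays of both genotypes. With the replicate block 4918 probes passed, with the replicate block within genotype 6214, and all 34 stayed past the threshold in both; within genotype Gssos2 passed as well (limma adjusted p = 0.0366). Probes that lose detection in deleted cells with CoCl2 have only a bound there; they entered the fits with the filter on 1 group or with no filter. The scaling to 4 E1A probes, the values within slides and a filter asking for at least 1 used spot well above background on each array (5666 probes past the threshold) were chosen after seeing the data.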
